A study of Mus musculus with 16 samples.

Results

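The comparison set medullary thymic epithelial cells with high surface MHC class II (mTEChi) against those with low surface MHC class II (mTEClo) in wild-type mice, using 8 of the 16 ATAC-seq libraries of the study. Its members were the 4 mTEChi and 4 mTEClo libraries labelled Aire+/+ and Brg1+/+, the wild-type arms of the study's lines, with 2 libraries for each line and sort. All mice were labelled C57BL/6 and 4 weeks old, and the column names of the Brg1+/+ libraries begin with NOCRE. The cells were sorted from digested thymus enriched for stroma as DAPI-negative, CD45-negative, Epcam-positive, UEA-positive and Ly51-low, and 60000 cells went into each transposition reaction. Whether the 2 libraries of a group stem from different mice, or from pools, is not in the labels, so a p-value measures only the spread between these libraries, which may be technical. Of 250313 regions of 500 bp in the deposited table, 216425 (86.5%) had a mean signal of at least 7.5 over the 8 libraries and were compared.

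ATAC-seq reads out open chromatin: the transposase Tn5 inserts sequencing adapters where DNA is free of nucleosomes, and signal piles up at active promoters and enhancers. Medullary thymic epithelial cells display self antigens to developing T cells and transcribe many genes that are otherwise kept to single peripheral tissues. The mTEChi fraction holds most cells with the regulator Aire and carries abundant MHC class II and costimulatory molecules, while the mTEClo fraction is a mixture of immature cells, chemokine-producing cells and cells past the Aire stage. A sort on MHC class II therefore separates states of 1 lineage that differ in maturity and in antigen presentation.

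The libraries of the sorts lay apart as wholes. On the first principal component of the 8 libraries, which held 40.0% of the variance, the 4 mTEChi libraries scored from -333.5 to -212.3 and the 4 mTEClo libraries from 188.3 to 350.0. Aire+/+ mTEChi replicate 2 stood apart from the other mTEChi libraries: its median Pearson r with them across regions was 0.536, against 0.647 to 0.662 for the other 3 mTEChi libraries and 0.746 to 0.821 for the 4 mTEClo libraries. A 0 was listed at 1714 tested regions in that library and at 2109 in Aire+/+ mTEClo replicate 2, and at none in the other 6 wild-type libraries. The median signal was 14.2 to 21.4 in mTEChi and 9.60 to 15.7 in mTEClo. In all 8 the 99th percentile was 226.1 to 226.5 and the maximum 1089.7 to 1091.9. The scaling behind the deposited values is not stated, so these near-equal upper values do not show that the libraries were alike in their strongest regions. The medians moved with the sort and with the line: they were 18.0 and 21.4 in Aire+/+ mTEChi, 14.5 and 15.7 in Aire+/+ mTEClo, 14.2 and 16.3 in Brg1+/+ mTEChi and 10.3 and 9.60 in Brg1+/+ mTEClo, so the sorts overlapped across the lines.

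Across the genome, limma called 31520 regions as more open in mTEChi and 16149 as more open in mTEClo, with line as a covariate and a Benjamini-Hochberg adjusted p under 0.05. These are 14.6% and 7.46% of the regions tested, and 22% in all, and 73625 (34%) had an unadjusted p under 0.05. Regions called higher in mTEChi had a median difference of 1.89 on the log2 scale, a 3.72-fold difference on the log2(signal + 1) scale used throughout, with a median signal of 36.4 in mTEChi and 8.57 in mTEClo. Among the mTEClo-higher regions it was -1.69, with 16.01 in mTEChi and 54.7 in mTEClo. Of the called regions, 29370 (13.6% of those tested) and 14094 (6.51%) differed by at least 1 on the log2 scale, and a difference of at least 2 was reached by 13557 of the former and 4883 of the latter. In a sorted population, a larger share of cells with an open region and more opening per cell cannot be told apart.

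The excess of mTEChi-higher calls rested on the scaling of the libraries. Over all tested regions the median log2 fold change was 0.29, and mTEChi-higher regions made up 66.1% of calls. After quantile normalization the median was -0.0059 and 20205 regions were called higher in mTEChi against 23575 in mTEClo, or 46.2% of calls. After cyclic loess normalization the numbers were 21092 and 21153, and after re-centring each library on its median 15717 and 31124, with median log2 fold changes of 0.021 and -0.17. Of the 31520 mTEChi-higher calls, 20204 were also made after quantile, 20904 after cyclic loess normalization and 15717 after re-centring. Of the 16149 mTEClo-higher calls, 16130, 15833 and 16149 were. Without Aire+/+ mTEChi replicate 2, the counts were 31015 and 15977, and 26030 and 14013 of those regions were among the calls from all 8 libraries.

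Both lines showed the difference between the sorts. Of the 47669 called regions, 47648 had the same sign in Aire+/+ and in Brg1+/+, against 71.0% of all tested regions. At the mTEChi-higher regions the median difference was 1.71 in Aire+/+ and 2.03 in Brg1+/+ on the log2 scale, beside 0.17 and 0.41 over all regions, and the mTEClo-higher regions had -1.68 and -1.64. All of these values come from the libraries that made the calls. The sort difference was also tested within each line, with variances taken from all 8 libraries. It was called in mTEChi at 8942 regions (4.13%) in Aire+/+ and 16154 (7.46%) in Brg1+/+, and in mTEClo at 6740 (3.11%) and 7405 (3.42%). Of the pooled calls, 13578 in mTEChi (43.1%) and 6302 in mTEClo (39.0%) were made in neither of these within-line tests. Fits to the libraries of a single line called 5626 and 4214 regions in Aire+/+ and 17261 and 7250 in Brg1+/+. A difference between the lines in the effect of the sort was tested directly: no region passed in limma after adjustment (0 calls, smallest adjusted p = 0.933) and 11097, or 5.13%, at an unadjusted p under 0.05. On simulated data this interaction fit missed nearly all of the differences between the lines that had been put in, so 0 calls does not show that the lines were alike.

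The regions that distinguish the sorts most were then read library by library. Of 19163 mTEChi-higher and 11398 mTEClo-higher regions with a mean signal of at least the median region (15.8) and no overlap between the sorts, the 12 with the largest fold change in each direction are described. All 4 libraries of a sort above all 4 of the other was seen at 13.9% of tested regions for mTEChi and 7.34% for mTEClo.

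**Figure D1:**
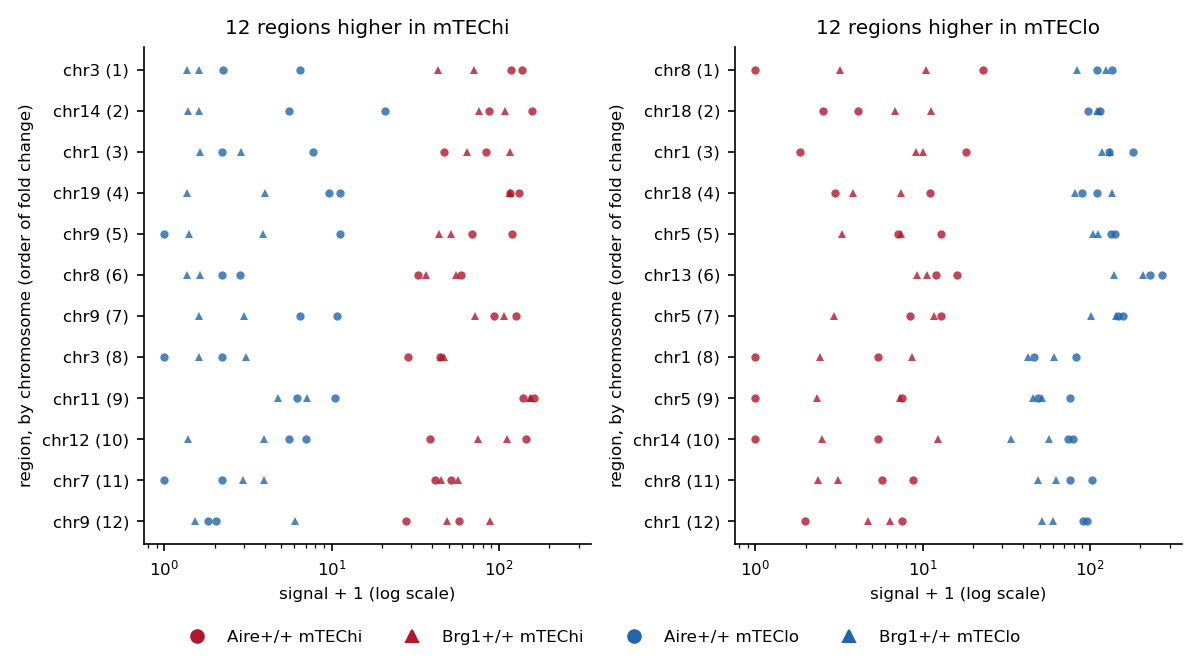
Signal plus 1 on a log axis (x) in each of the 8 wild-type libraries at the 12 mTEChi-higher (left) and 12 mTEClo-higher (right) regions with the largest fold changes (y, by chromosome and order). Red points are mTEChi and blue points mTEClo libraries, circles Aire+/+ and triangles Brg1+/+; by the rule of choice the colours do not overlap within a region, and the log2 fold changes run from 4.41 to 5.14 on the left and from -4.41 to -3.97 on the right.

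The largest mTEChi-higher difference was on chromosome 3 from 85996362 to 85996861 in mm9, the build of all positions here. Signal there was 117 and 136 in Aire+/+ mTEChi and 70.1 and 42.3 in Brg1+/+ mTEChi, against 5.45 and 1.24 in Aire+/+ mTEClo and 0.371 and 0.623 in Brg1+/+ mTEClo (log2 fold change 5.14, SE 0.51, limma adjusted p = 4.93e-08). The mTEClo libraries were near the bottom of the scale at this place while each mTEChi library was well above its own median. Of the 11 other tested regions within 50 kb, 3 were called higher in mTEChi and 0 in mTEClo.

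The mTEChi-higher region with the smallest adjusted p of the 12 was on chromosome 11 from 81552458 to 81552957, where the 4 mTEChi libraries were close together. The Aire+/+ mTEChi libraries held 138 and 162 and the Brg1+/+ mTEChi libraries 154 and 152, against 9.42, 5.22, 3.78 and 6.17 in mTEClo in the same order (log2 fold change 4.47, SE 0.37, limma adjusted p = 4.99e-09). The nearest tested region, 1163 bp away, had a log2 fold change of 3.23 and was also called. A region of chromosome 19 from 36180171 to 36180670 was nearly as even, with 131, 116, 115 and 115 in mTEChi and 8.62, 10.2, 0.364 and 3.02 in mTEClo. On chromosome 1 from 160509716 to 160510215, signal was 45.9, 82.3, 63.7 and 115 in mTEChi and 6.76, 1.23, 1.90 and 0.629 in mTEClo, and 3 of the 6 other tested regions within 50 kb were also called higher in mTEChi, with a median log2 fold change of 1.71 over the 6.

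Not all large differences had neighbours of the same kind. On chromosome 9 from 74294612 to 74295111, signal was 126, 92.6, 107 and 71.4 in mTEChi and 5.45, 9.76, 1.98 and 0.616 in mTEClo (log2 fold change 4.52, SE 0.47), while the only other tested region within 50 kb was called higher in mTEClo, with a log2 fold change of -1.60. On chromosome 12 from 45186518 to 45187017, signal was 145, 37.7, 110 and 74.1 against 4.56, 6.01, 0.381 and 2.96, and none of the 4 other tested regions within 50 kb was called. The remaining 6 regions of this direction lay on chromosomes 3, 7, 8, 9 and 14, chromosome 9 with 2 of them, and had log2 fold changes of 4.41 to 4.68. The lowest mTEChi value among these 6 was 26.8 and the highest mTEClo value 19.99. Single libraries moved 2 of them by over 1.5 times: the region on chromosome 14 from 24204867 went from 4.68 to 5.32 without Aire+/+ mTEClo replicate 2, and that on chromosome 9 from 72447954 from 4.56 to 3.82 without that library and to 5.21 without Aire+/+ mTEClo replicate 1.

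Among mTEClo-higher regions, the largest difference was on chromosome 8 from 48121771 to 48122270. Signal was 134 and 109 in Aire+/+ mTEClo and 82.7 and 124 in Brg1+/+ mTEClo, against 21.9 and a listed 0 in Aire+/+ mTEChi and 9.44 and 2.22 in Brg1+/+ mTEChi (log2 fold change -4.41, SE 0.63, limma adjusted p = 2.16e-05). This rank rested on the listed 0: without Aire+/+ mTEChi replicate 2 the log2 fold change was -3.45, the 9th of the 12, and without Aire+/+ mTEChi replicate 1 it was -5.26. None of its 6 tested neighbours within 50 kb was called. With a pseudocount of 5 its log2 fold change was -3.41, smaller in size than the -3.72 of a region on chromosome 13 from 60419736. The region with the highest mean signal of the 24 lay on chromosome 13, between 60419736 and 60420235, and held 226, 267, 207 and 138 in mTEClo and 11.1, 15.2, 9.67 and 8.28 in mTEChi (log2 fold change -4.12, SE 0.30, limma adjusted p = 5.55e-10).

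A pair of the 12 mTEClo-higher regions lay close together on chromosome 18. From 69974100 to 69974599, signal was 96.9, 113, 109 and 112 in mTEClo and 3.13, 1.53, 5.80 and 10.2 in mTEChi (log2 fold change -4.35, SE 0.44). From 70143988 to 70144487 it was 88.8, 110, 135 and 80.2 against 10.1, 2.00, 6.43 and 2.84 (log2 fold change -4.20, SE 0.46). Within 50 kb of the former, 3 of 5 other tested regions were called higher in mTEClo, and within 50 kb of the latter 2 of 6, with 0 called higher in mTEChi at either place. The other 8 mTEClo-higher regions lay on chromosomes 1 (3 regions), 5 (3 regions), 8 and 14, with log2 fold changes of -4.21 to -3.97, mTEClo values from 32.7 to 179 and mTEChi values from a listed 0 to 17.3. Without Aire+/+ mTEChi replicate 2, 4 of these 8 moved by over 1.5 times: the regions on chromosome 1 from 164173536 and from 45078881, chromosome 5 from 139359495 and chromosome 14 from 39852311 then stood at -3.45, -3.49, -3.34 and -3.32. The last of them stood at -4.68 without Brg1+/+ mTEChi replicate 2.

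Regions that were closed in all libraries of a sort and among the most open in all libraries of the other were few. By rank within each library, 76 regions were in the upper quartile of all 4 mTEChi libraries and in the lower quartile of all 4 mTEClo libraries, with median signals of 58.8 and 4.34. The reverse held at 85 regions, with 47.4 in mTEClo and 5.42 in mTEChi. These are 0.0351% and 0.0393% of the regions tested, and ranks do not move with linear scaling. In the 4 mTEChi libraries the mTEClo-higher regions had median percentile ranks of 42.4 to 47.2 and in the 4 mTEClo libraries they ranked at 87.4 to 89.3. The mTEChi-higher regions ranked at 74.7 to 78.1 in mTEChi and at 29.0 to 34.7 in mTEClo. The calls chose these regions, so the ranks are a description.

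Which regions were called depended on how strong they were. In the decile of lowest mean signal 0.813% of regions were called higher in mTEChi and 0.116% in mTEClo, against 25.4% and 14.1% in the decile from 24.6 to 34.6. In the decile of highest signal, above 58.1, mTEClo-higher regions were more common than mTEChi-higher ones, at 20.1% against 17.5%, an order seen in no other decile, and the median absolute difference of called regions was 1.07, against 1.74 to 2.43 in the lower deciles. Over all regions of a decile, the median log2 fold change was 0.0031 in the highest and 0.16 to 0.47 in the lower ones. The shares by decile were not recomputed under another scaling. Regions in the upper quartile of all 8 libraries numbered 19447, and 4824 of them (24.8%) were called, beside 22% of all regions tested.

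**Figure D2:**
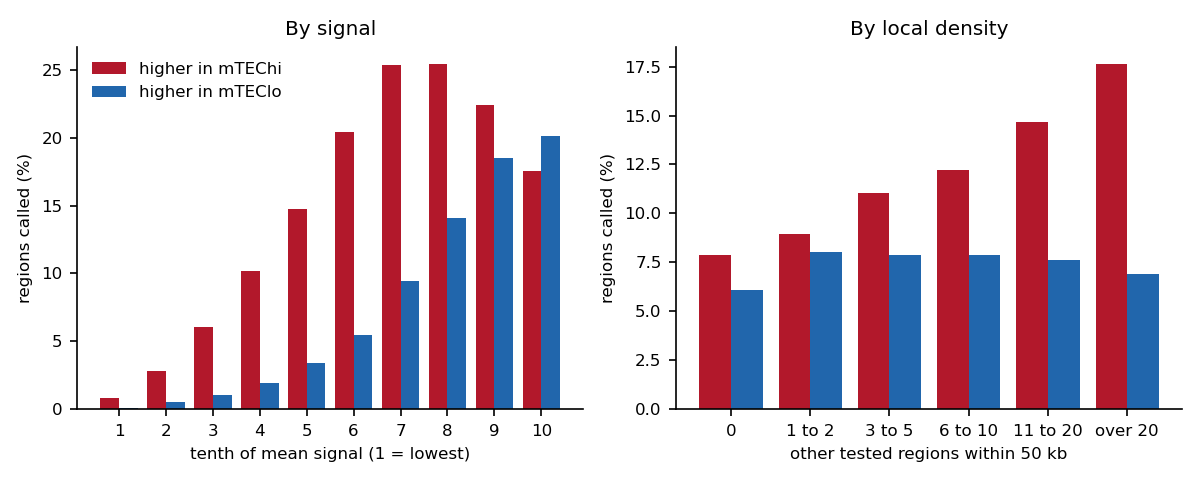
Percentage of tested regions called higher in mTEChi (red) or in mTEClo (blue), by decile of mean signal over the 8 libraries (left) and by the number of other tested regions within 50 kb (right). The mTEChi-higher share climbs from 7.88% of regions with 0 neighbours to 17.6% of those with over 20, while the mTEClo-higher share stays between 6.07% and 8.03%.

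Regions higher in mTEChi were more common where accessible regions crowd together. Of regions with no other tested region within 50 kb, 7.88% were called higher in mTEChi and 6.07% in mTEClo. Of those with over 20 such neighbours, 17.6% and 6.90% were. To read this per library, the mean log2(signal + 1) of the 28393 regions with 5 or fewer neighbours was subtracted from that of the 69685 regions with over 20. The difference was 0.580 and 0.570 in Aire+/+ mTEChi and 0.736 and 0.605 in Brg1+/+ mTEChi, against 0.284 and 0.287 in Aire+/+ mTEClo and 0.485 and 0.497 in Brg1+/+ mTEClo. Each mTEChi library lay above each mTEClo library (0.623 ± 0.077 against 0.388 ± 0.118, SD, n = 4). An exact two-sided permutation test, which did not take line into account, gave p = 0.0286, the smallest that 4 against 4 can give. Quantile normalization left the difference between the sorts at 0.238, beside 0.235 as deposited. This measure was chosen after the data had been seen, and median mean signal also went from 11.2 at regions with 0 neighbours to 17.6 at those with over 20; the part of signal level in it was not tested. In the 8 knockout libraries the measure differed by 0.205 in the same direction, but with overlap between the sorts (0.536 to 0.712 against 0.174 to 0.603, exact permutation p = 0.171). The Aire-/- libraries held 0.536 and 0.712 in mTEChi against 0.272 and 0.174 in mTEClo. The Brg1-/- libraries held 0.644 and 0.536 against 0.560 and 0.603, so the sorts were apart within Aire-/- and overlapped within Brg1-/-.

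Neighbouring regions tended to share the call. Where the nearest tested region lay within 1000 bp of an mTEChi-higher region, it was itself called higher in mTEChi in 29.4% of 10217 cases and higher in mTEClo in 2.77%, beside 12.1% and 9.02% for the nearest neighbours of all regions at that distance. For mTEClo-higher regions the neighbour was called higher in mTEClo in 17.4% of 7111 cases and higher in mTEChi in 3.56%. At distances over 5000 bp and up to 50000 bp, the shares of the same call were 19.01% for mTEChi-higher and 13.5% for mTEClo-higher regions, beside 12.9% and 7.26% for all. The regions did not overlap, with starts at least 501 bp apart, and whether 1 fragment could count toward adjacent regions was not tested.

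Uninterrupted runs of calls were short. Counting successive tested regions that were all called in 1 direction with gaps of at most 50 kb, 146 runs of at least 5 regions were higher in mTEChi and 7 in mTEClo, and 16.1% and 5.63% of called regions were in runs of at least 3. Single calls were also more common in mTEChi, at 14.6% of tested regions against 7.46% in mTEClo, and more frequent calls join into runs more often. The part of this share in the run counts was not tested, and runs were not recounted under another scaling. The longest run, of 10 regions, was higher in mTEChi and spanned chromosome 11 from 58418694 to 58450544. Its median signal over the 10 regions was 39.5, 35.5, 34.98 and 23.2 in the mTEChi libraries and 9.63, 6.15, 4.28 and 6.17 in the mTEClo libraries, with log2 fold changes from 1.59 to 3.54. The next was a run of 9 regions on chromosome 7 from 127300389 to 127334238, with medians of 62.0, 48.2, 73.5 and 64.7 against 9.42, 8.78, 12.4 and 7.16. A run of 8 regions on chromosome 15 from 97899913 to 97920293 had medians of 48.3, 33.1, 34.5 and 32.96 against 8.02, 6.78, 1.24 and 2.98.

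The longest runs higher in mTEClo held 6 regions each. On chromosome 4 from 97292774 to 97333882, the median signal was 85.2, 89.2, 71.7 and 55.9 in mTEClo and 23.2, 19.8, 14.5 and 18.4 in mTEChi, and the sorts did not overlap at any of the 6 regions. On chromosome 3 from 86916902 to 86955018 the medians were 36.3, 47.7, 35.5 and 44.2 against 5.02, 11.5, 8.13 and 17.3. On chromosome 2 from 72077060 to 72087640 they were 43.0, 57.8, 39.5 and 24.0 against 13.3, 23.0, 6.12 and 8.27. Every region of these 6 runs had the same sign in the 8 knockout libraries.

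To find stretches rather than single sites, the tested regions were averaged in 1-Mb windows. Each window's value in a library is the mean log2(signal + 1) of its regions minus the mean over all regions of that library, so a window is read against the rest of the genome. Of 2304 windows with at least 10 tested regions, limma called 440 higher in mTEChi (19.1%) and 624 in mTEClo (27.1%), which is 46.2% of all windows. The median absolute difference was 0.31 for the former and 0.38 for the latter, and a difference of at least 0.5 was reached by 58 and 176 windows. Windows higher in mTEChi held a median of 113.5 tested regions and those higher in mTEClo 69.5: of the 419 windows with over 150 tested regions, 35.6% were higher in mTEChi and 10.5% in mTEClo, while of the 413 windows with 10 to 30 regions the shares were 14.8% and 31.96%. Without centring, the offset between the sorts made 1213 windows higher in mTEChi and 89 in mTEClo. Without Aire+/+ mTEChi replicate 2, 448 and 619 windows were called. The interaction with line was called by limma at 0 of 2304 windows (106 at an unadjusted p under 0.05), and each of the 1064 called windows had the same sign in both lines.

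**Figure D3:**
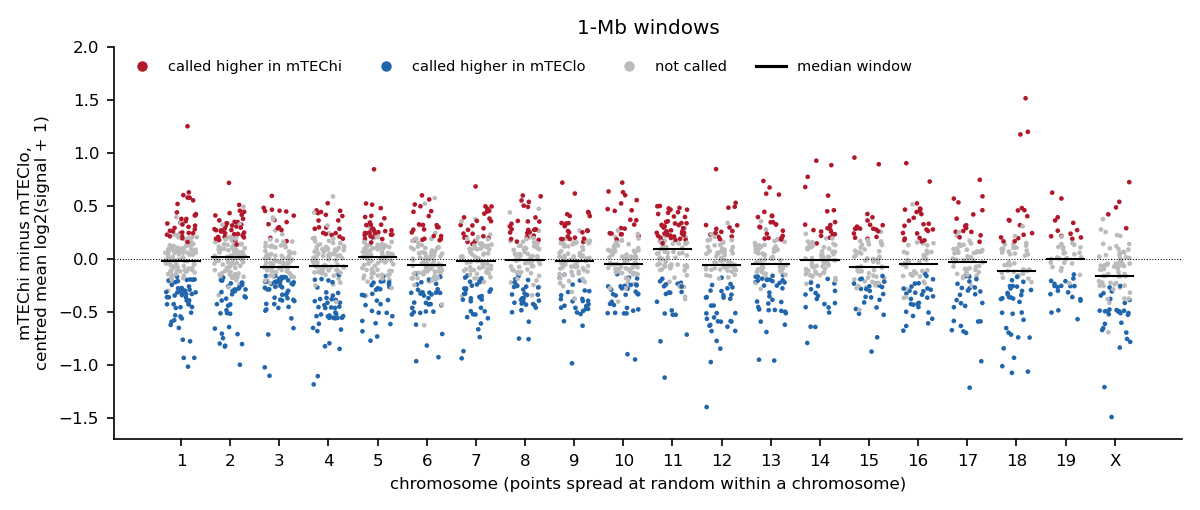
Difference between mTEChi and mTEClo in centred mean log2(signal + 1) (y) for each of 2304 windows of 1 Mb, by chromosome (x). Red and blue points were called higher in mTEChi and in mTEClo and black bars are medians; chromosome 11 has the highest share of red windows (36.8%) and chromosome 18 both the highest window (1.52) and the highest share of blue windows (38.1%).

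Of the 5 windows with the largest differences in favour of mTEChi, 3 lay on chromosome 18. The highest window of the genome was chromosome 18 from 19000001 to 20000000, where the centred means were 0.28, 0.91, 0.55 and 0.47 in the mTEChi libraries and -0.75, -1.30, -1.22 and -0.58 in the mTEClo libraries (difference 1.52, SE 0.19, limma adjusted p = 0.00025). It held 10 tested regions, 6 of them called higher in mTEChi and 0 in mTEClo. The region from 19682778 to 19683277 had a signal of 185, 178, 159 and 137 in mTEChi and 17.6, 8.68, 10.5 and 9.47 in mTEClo, and the one from 19669832 to 19670331 had 90.7, 83.98, 110 and 100.03 against 12.2, 14.8, 15.1 and 29.2. The other 2 of these windows, from 87000001 and from 90000001, lay toward the far end of the same chromosome, with differences of 1.20 (SE 0.15) and 1.17 (SE 0.23).

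The remaining windows of the highest 5 were on chromosomes 1 and 15. The window of chromosome 1 from 100000001 to 101000000 differed by 1.25 (SE 0.19), with 8 of 22 regions called higher in mTEChi and 0 in mTEClo. Aire+/+ mTEChi replicate 2 was the lowest of the mTEChi libraries there, at -0.60, and still above the 4 mTEClo libraries at -1.47 to -1.09. On chromosome 15 from 16000001 to 17000000 the difference was 0.96 (SE 0.13), and a region from 16496007 to 16496506 held 231, 104, 198 and 155 in mTEChi and 17.1, 19.7, 13.0 and 5.89 in mTEClo. These 5 windows held only 10 to 22 tested regions each, so each mean rests on few sites.

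The windows most open in mTEClo were as sparse. Chromosome 12 from 10000001 to 11000000 had the smallest adjusted p of all windows: the centred means were 0.82, 0.69, 0.79 and 0.87 in mTEClo and -0.53, -0.62, -0.59 and -0.68 in mTEChi (difference -1.40, SE 0.059, limma adjusted p = 4.99e-09). Of its 28 tested regions 9 were called higher in mTEClo and 0 in mTEChi. The region from 10011581 to 10012080 held 152, 80.2, 106 and 111 in mTEClo and 9.42, 19.4, 10.2 and 37.1 in mTEChi. Chromosome 17 from 16000001 to 17000000 differed by -1.21 (SE 0.087), with 7 of 24 regions called higher in mTEClo and 1 in mTEChi. The other 3 were chromosome X from 14000001 (-1.49) and from 58000001 (-1.21) and chromosome 4 from 77000001 (-1.18). There 1 of 10, 6 of 19 and 1 of 12 tested regions were called singly. In each of these 5 mTEClo-higher windows most tested regions did not pass the test one by one. The 5 windows higher in mTEChi and the 5 higher in mTEClo kept their direction and call without centring.

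Some called windows joined into longer stretches. These were read from the centred windows, so their directions are relative to the rest of the genome, and they were not rebuilt without centring. The longest higher in mTEChi was chromosome 11 from 115000001 to 122000000, 7 windows with 455 of 1970 tested regions called higher in mTEChi and 96 in mTEClo. Next was chromosome 4 from 130000001 to 135000000, with 256 of 1156 regions called higher in mTEChi and 40 in mTEClo. The longest stretch higher in mTEClo was also 7 windows, chromosome 18 from 42000001 to 49000000, with 59 of 507 regions called higher in mTEClo and 39 in mTEChi. Chromosome 3 from 142000001 to 148000000 followed with 6 windows, where 59 of 571 regions were called higher in mTEClo and 46 in mTEChi. Among stretches of 5 windows, chromosome 18 from 51000001 to 56000000 had 58 of 326 regions called higher in mTEClo and 21 in mTEChi. Mean differences of windows were 0.33 and 0.34 in the mTEChi stretches and -0.47, -0.41 and -0.69 in the mTEClo stretches. The smallest absolute window differences in these mTEClo stretches were 0.17, 0.19 and 0.30. Over all windows, the median difference was -0.036 with centring and 0.28 without it. In the 7-window stretch of chromosome 18, 11.6% of regions were called higher in mTEClo and 7.69% in mTEChi, and in that of chromosome 3 10.3% and 8.06%, beside 7.46% and 14.6% of all regions tested.

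Whole chromosomes differed less. The centred mean was higher in all 4 mTEChi libraries than in all 4 mTEClo libraries on chromosomes 5 and 11 and lower on chromosomes 3, 13, 16 and 18. On chromosome 11 it was 0.18, 0.14, 0.17 and 0.10 in mTEChi and 0.044, -0.029, 0.067 and 0.047 in mTEClo, a difference of 0.12. On chromosome 18 it was -0.11, -0.057, -0.077 and -0.093 against 0.024, -0.016, 0.020 and 0.047, a difference of -0.10. Each of these 6 chromosomes had the smallest two-sided p that an exact permutation test of 4 against 4 can give, 0.0286, and an adjusted p over 20 chromosomes of 0.0952. The adjusted exact test therefore called 0 of 20 chromosomes, 6 of them having an unadjusted p under 0.05. Line was not taken into account in these permutations. Chromosome X had the largest difference, -0.21, with overlap between the sorts (-0.40 to -0.045 in mTEChi and -0.21 to 0.18 in mTEClo) and an exact permutation p of 0.114. The difference was -0.21 within Aire+/+ and -0.21 within Brg1+/+. In Aire+/+, replicate 2 lay above replicate 1 in mTEChi (-0.045 against -0.40) and in mTEClo (0.18 against -0.21). The permutations did not take replicate number into account either. These directions are relative to the rest of the genome: without centring, each of the 20 chromosomes was higher in mTEChi, from 0.11 on chromosome X to 0.44 on chromosome 11, and chromosome 18 stood at 0.22.

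The gate itself gave a stretch to look at. The class II genes whose products were stained for the sort lie in the major histocompatibility complex on mouse chromosome 17, and the windows from 33 to 37 Mb of that chromosome were set aside because the complex is known to lie there. These bounds are round and come from general knowledge: no annotation of mm9 was at hand, so no region was assigned to a gene. The window from 34000001 to 35000000 was higher in mTEChi, at 1.07, 0.57, 0.81 and 0.43 against 0.098, 0.080, 0.15 and 0.20 in mTEClo (difference 0.59, SE 0.12, limma adjusted p = 0.0037). Of its 358 tested regions, 110 (30.7%) were called higher in mTEChi and 6 in mTEClo. No other window had as many regions called higher in mTEChi, the next holding 104, though it was also second in the number of tested regions and 37th in the difference. Among the 953 windows with at least 100 tested regions it was the 4th highest.

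**Figure D4:**
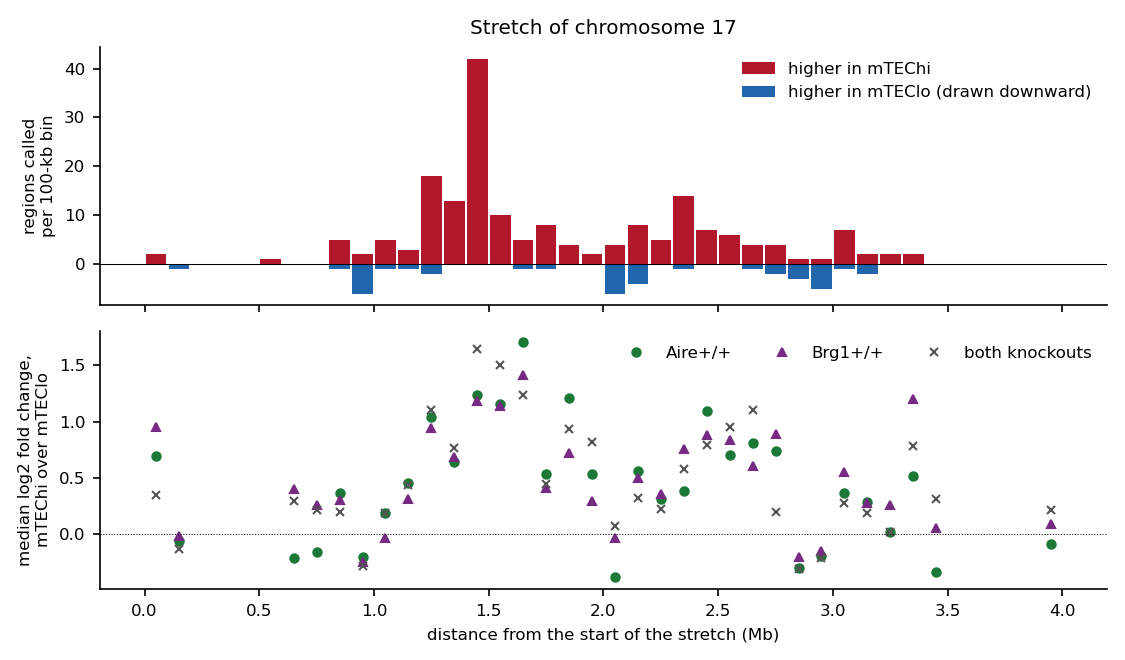
Regions called per 100-kb bin (top, mTEChi-higher upward in red and mTEClo-higher downward in blue) and median log2 fold change of bins with at least 5 tested regions (bottom; circles Aire+/+, triangles Brg1+/+, crosses the 8 knockout libraries), against distance from the start of the 4-Mb stretch of chromosome 17. The peak bin has 42 mTEChi-higher regions and 0 mTEClo-higher ones.

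The calls within this window were uneven. The bin from 34400001 to 34500000 held 95 tested regions, of which 42 were called higher in mTEChi and 0 in mTEClo; the median over all 95 was 1.31 on the log2 scale (1.24 in Aire+/+ and 1.18 in Brg1+/+). From 34200001 to 34300000 there were 18 of 61 and from 34300001 to 34400000 13 of 47, against 2 and 0 called higher in mTEClo. The largest fold change of the window among regions of at least median signal without overlap was at 34463668 to 34464167, with 62.2, 121, 84.5 and 62.9 in mTEChi and 4.56, 13.9, 6.86 and 2.93 in mTEClo (log2 fold change 3.50, SE 0.45, limma adjusted p = 2.33e-06). Of the 85 other tested regions within 50 kb of it, 39 were called higher in mTEChi and 0 in mTEClo. Next was the region from 34465308 to 34465807, with 102, 44.2, 52.7 and 56.3 against 5.45, 11.2, 3.96 and 2.96 (log2 fold change 3.29, SE 0.46).

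As wholes, the flanking windows differed less. From 33000001 to 34000000 the centred mean was lower in mTEChi by 0.17 (SE 0.060, limma adjusted p = 0.037), a call that was lost on leaving out any of 5 of the 8 libraries or after quantile normalization, and without centring the difference was 0.15 in the other direction (adjusted p = 0.10). From 35000001 to 36000000 the difference was 0.084 (SE 0.086, adjusted p = 0.44) and from 36000001 to 37000000 it was 0.0052 (SE 0.068, adjusted p = 0.96). Single regions were called in both: 54 of 318 and 13 of 102 were higher in mTEChi, against 22 and 3 in mTEClo. Over all tested regions the shares were 14.6% and 7.46%. Without centring, limma called both windows higher in mTEChi, at 0.40 and 0.32. The window from 35000001 was uneven: bins from 35100001 to 35800000 had median log2 fold changes of 0.36 to 0.83. The bins from 35300001 and 35400001 had 14 of 48 and 7 of 23 regions called higher in mTEChi. Medians were -0.051, -0.21 and -0.10 in the bins from 35000001, 35800001 and 35900001, beside 0.29 over all tested regions.

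The 8 knockout libraries, which had no part in the calls, gave the same measure in other samples. They are Aire-/- and Brg1-/- mTEChi and mTEClo with 2 libraries each, and were compared with line as a covariate. Of the 31520 regions higher in wild-type mTEChi, 30868 (97.9%) had a positive log2 fold change in the knockouts, beside 65.1% of all regions, and 19523 (61.9%) were called; these were 57.3% of the 34066 regions called higher in knockout mTEChi (15.7% of those tested). Of the 16149 regions higher in wild-type mTEClo, 15548 (96.3%) had a negative one, beside 34.9% of all regions, and 8091 (50.1%) were called; these were 78.1% of the 10361 regions called higher in knockout mTEClo (4.79%). Calls in the opposite direction numbered 0 and 2. Of the called windows, 436 of 440 higher in mTEChi and 616 of 624 higher in mTEClo kept their sign.

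**Figure D5:**
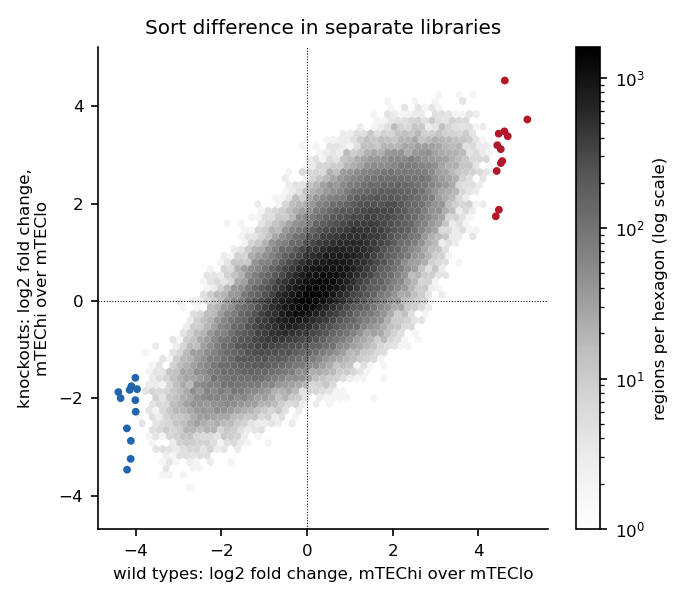
Log2 fold change of mTEChi over mTEClo in the 8 wild-type libraries (x) and in the 8 knockout libraries (y) for all tested regions, as hexagons shaded by the number of regions on a log scale. Red and blue points are the 12 mTEChi-higher and 12 mTEClo-higher regions with the largest wild-type differences. All 24 keep their sign and lie nearer to 0 in the knockouts.

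At regions chosen for a large difference, a smaller value in other samples follows in part from the choice. The median log2 fold change at mTEChi-higher regions was 1.62 in Aire-/- and 1.46 in Brg1-/-, beside 0.084 and 0.59 over all regions, and at mTEClo-higher regions it was -1.51 and -0.73. All 24 named regions kept their direction, and each was called in the knockout libraries by limma, with adjusted p-values up to 0.024. On chromosome 1 from 160509716 to 160510215, the mTEChi libraries held 127 and 175 in Aire-/- and 30.1 and 79.9 in Brg1-/-, against 5.45, 9.74, 0.513 and 0.908 in mTEClo (log2 fold change 4.53). On chromosome 8 from 48121771 to 48122270, where wild-type mTEClo was high, Aire-/- mTEClo held 118 and 108 and Brg1-/- mTEClo 31 and 22.4, against 7.86, 10.1, 25.3 and 20.04 in mTEChi. The sorts overlapped in the Brg1-/- libraries there.

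In the chromosome 17 window from 34000001 to 35000000 the knockout libraries differed by 0.65 (limma adjusted p = 0.021), and the median over the 95 regions from 34400001 to 34500000 was 1.65. At 34463668 to 34464167 the knockout mTEChi libraries held 115 and 205 in Aire-/- and 7.76 and 47.9 in Brg1-/-, against 11.7, 6.72, 2.91 and 2.75 in mTEClo. The lower Brg1-/- mTEChi value thus lay between the Aire-/- mTEClo libraries but above the Brg1-/- mTEClo libraries, at 2.91 and 2.75. The windows on chromosomes 18 from 19000001 and 12 from 10000001 differed by 1.57 and -1.11 in the knockouts.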

How the data were processed

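The authors deposited a single table of normalized ATAC-seq signal for 250313 regions in 16 libraries; its unit is signal, and the scaling behind it is not stated. The submitters' processing notes list Bowtie2, MACS2 and mm9 and give no versions; region definition, Tn5 offset and duplicate handling are not stated there. Depth is unknown, and no interval or count model was used. Regions were not linked to genes and no sequences are shown, since the tables at hand are of another assembly; chromosomal positions count from 1.

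Values were analysed as log2(signal + 1) at regions with a mean of at least 7.5 over the 8 libraries (33888 were left out; a mean of 7.50009 was just inside and 7.49998 just outside). limma 3.58.1 in R 4.3.3 fitted line and sort with 5 residual degrees of freedom and trended, robust variances. The fits were tested on simulated data. Named regions were the 12 per direction with the largest fold change among called regions with signal at or above the median and no overlap of the sorts; named windows were the 5 per direction with the largest difference and named runs the 3 with the most regions. The main fit did not pair the sorts by replicate number. Over all regions, deviations from the group mean hardly correlated between sorts at the same number (r = 0.030 in Aire+/+ and 0.0056 in Brg1+/+). Such an r cannot exclude shared mice or pools, and on chromosome X Aire+/+ replicate 2 lay above replicate 1 in both sorts. The comparison, lists and rules were chosen with earlier results of these data known.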

Additional observations from a re-analysis of the deposited data

Results flagged for a closer look

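In 100 groups of 4 libraries read for single values far from the rest, 4 stood out, and chance alone flags about 1 in 20. On chromosome 19 from 36180171 to 36180670, Aire+/+ mTEChi replicate 1 held 131, against 115 to 116 in the other 3 mTEChi libraries. On chromosome 3 from 103711509 to 103712008, the same library held 27.5, against 43.4 to 46.2. In the run on chromosome 15 from 97899913 to 97920293, its median was 48.3, against 32.96 to 34.5. On chromosome 9 from 107834505 to 107835004, Brg1+/+ mTEClo replicate 1 held 5.01, against 0.535 to 1.03 in the other mTEClo libraries.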

How the results depend on the processing

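The 24 named regions kept their direction and their call under each alternative run, with adjusted p-values up to 0.044; leaving out 1 library moved the fold change of 7 of them by over 1.5 times, 5 of these without Aire+/+ mTEChi replicate 2. Calls numbered 15717 (mTEChi) and 31124 (mTEClo) after re-centring, 20205 in mTEChi after quantile normalization, 10177 in mTEClo without trended and robust variances, 5626 and 4214 with the Aire+/+ libraries alone and 17261 and 7250 with the Brg1+/+ libraries alone. Leaving out 1 library gave 23061 to 31015 and 11342 to 15977 regions, 357 to 448 and 516 to 619 windows, and 0 interaction calls by limma (4705 to 20245 regions at an unadjusted p under 0.05). The replicate block gave 32592 and 16847 regions, 453 and 638 windows and 0 interaction calls (11855 unadjusted), and changed no call named here. Windows of 200 kb gave 1493 and 1687 calls, windows of 5 Mb 94 and 146, and no centring 1213 and 89, with the chromosome 17 window from 33000001 at 0.15. Regions called in wild types and knockouts numbered 5503 and 1779 with the Brg1-/- libraries alone and 10622 and 13327 after quantile normalization. With tertiles in place of quartiles, switching regions numbered 506 and 583, and gaps of 20 kb left 4 mTEClo-higher runs of at least 5. The cause was not tested for any of these; fewer libraries enter where a line stands alone, and depth is unknown.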
